A study of Drosophila melanogaster with 4 samples.

Results

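Germline and oogenesis genes of Drosophila melanogaster are described here, a set of 36 genes chosen by name for known roles in making the egg. Of these, 34 had a probe set that names them alone on the array, of 10843 genes so measured in all, and each was read from its brightest probe set by mean signal over all arrays. The nos and cup genes had no such probe set and are not analysed here. The 34 measured genes were sorted by role into 6 of the early germarium, 6 of nuage and the piRNA pathway, 12 of axis determination and mRNA localisation, 4 of ring canals and nurse cell actin, and 6 of meiosis and egg activation.

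The JH III samples were pools of 30 whole adult y, w females, each fly given 0.1 µl of acetone with juvenile hormone III at 187 mM on the body surface. The acetone samples were pools of 30 such females given 0.1 µl of acetone alone. All flies of both groups had been kept off yeast for their first 5 days as adults, and were frozen 12 hours after treatment. There were 2 pools per group, each on 1 Affymetrix DrosGenome1 array, and this number limits the precision of every value. The diet was meant to lower the hormone that the flies make themselves. Whole bodies were used, so the ovaries gave only part of the RNA. In such bulk samples, fewer germline cells and less RNA per cell cannot be told apart.

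The ovary of the fly makes eggs in strings of egg chambers that begin in the germarium. There a germline stem cell divides, and its daughter becomes a cyst of sister cells joined by ring canals, of which 1 becomes the oocyte and the others nurse cells. The nurse cells load the oocyte with mRNAs and proteins that later set the body axes and the germline of the embryo, the piRNA pathway silences transposons in the germ cells, and the completed egg resumes its cell cycle when it is activated. Juvenile hormone is known in flies for promoting the making and uptake of yolk.

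Signals are linear intensities scaled by the authors to a common trimmed mean, and differences are JH III minus acetone of log2(signal + 83), which understates the change of dim genes. The log2 signals of JH III replicate 1 over all probe sets correlated with those of each other array at 0.79, against 0.86 to 0.88 among the other 3 arrays. For the control gene GAPDH the 3' probe set exceeded the 5' one 2.32 and 5.75 times with JH III and 15.5 and 10.2 times in acetone, a ratio that varies with RNA integrity and labelling. Acetone replicate 1 came from a chip lot of its own and the other 3 arrays shared a lot. Control levels, the 95th percentile of 23 control probe sets for RNAs that were not added, were 369 and 240 with JH III and 139 and 295 in acetone. The pools had the signal of females, with Yp3, a yolk protein gene of female fat body, at 25006 and 36554 with JH III and at 42126 and 38990 in acetone. Of 16 measured genes of the male accessory gland and testis, 7 lay under the control level in all 4 arrays, and the list summed to 5470 and 2663 with JH III and to 2090 and 2883 in acetone.

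None of the germline genes passed the test across all probe sets. Of the 31 above the filter on dim probe sets, limma called 0 higher and 0 lower at an adjusted p of 0.05, against a background of 0.0286% higher and 0.134% lower (0.162% in all) of the 10474 probe sets tested. The lowest limma adjusted p among the genes was 0.636, for mael, and the per-gene t-test named in the labels also called 0 after adjustment, with 3 under 0.05 before it. At an unadjusted limma p under 0.05 stood 3 of the 31 (9.68%), otu and gnu with positive differences and mael with a negative one, against a background of 7.29% (3.54% higher and 3.75% lower). That count was 0 without JH III replicate 1, 4 without JH III replicate 2, 1 without acetone replicate 1 and 0 without acetone replicate 2. In 7 of the 31 (22.6%) each JH III array lay above each acetone array, against a background of 22.2%, and in 4 (12.9%) each lay below, against 15.3%. Over all 34 measured genes these counts were 9 (26.5%) and 4 (11.8%), against 23.7% and 13.4% of all probe sets with no filter. The shares are near the background in both directions.

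The median difference over the 34 measured genes was 0.19, and 0.18 over the 31 tested, beside 0.10 over all probe sets tested. Centring each array on its median moved the median of all probe sets by -0.24, and that of the 34 genes was then -0.05. Positive differences were found for 22 of the 34 genes (64.7%), beside 56.1% of all probe sets tested. The 22 include bam, qua and plu, which lay below the filter, while the 56.1% leaves such dim probe sets out. Of the 31 tested genes 17 lay above the median of all probe sets tested, 0.10. Of the 34, 18 lay above the median of all 13966 probe sets without a filter, which was 0.13. The whole array had a trend with signal: the median difference was 0.30 in the dimmest 25% of the probe sets tested and -0.16 in the brightest 25%. Among the brightest 25%, 8 of 10 germline genes lay above the median of those probe sets, and among the dimmest 25%, 1 of 3. In the 25% next to the dimmest it was 2 of 5, and in the 25% next to the brightest 7 of 13.

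**Figure D1:**
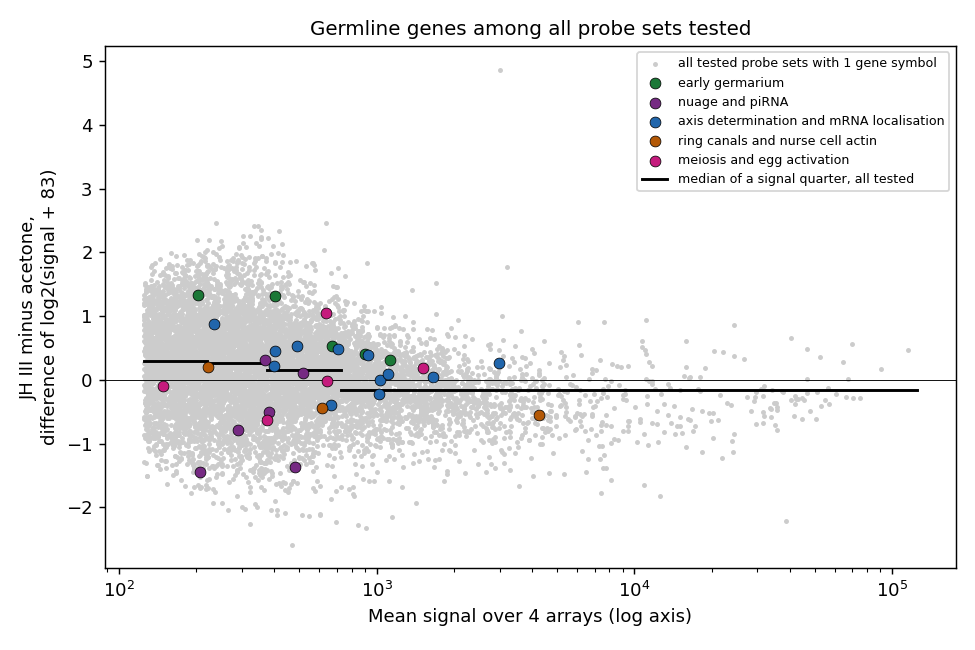
Difference of log2(signal + 83), JH III minus acetone, against mean signal over the 4 arrays (log axis), for the tested germline genes by role (coloured) and all tested probe sets with 1 gene symbol (grey). Black lines are the medians of all tested probe sets in each 25% of the range of signal ranks, from 0.30 in the dimmest to -0.16 in the brightest, and the germline genes lie within the grey cloud.

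The precision of the fit differed from gene to gene. The 95% interval reached 1.08 to either side of the difference in the median of the 31 tested genes, with a range of 0.70 to 1.87. For 6 genes, osk, orb, me31B, pgc, CycB3 and wisp, the interval lay within 1 log2 unit of 0 on this scale, on which 1 unit is more than a 2-fold change of signal. For the other tested genes the interval reached past 1 log2 unit in at least 1 direction. Of the signals, those of 16 of the 34 genes lay above the control level in all 4 arrays, and bam, qua, plu and twe lay under it in all 4.

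**Figure D2:**
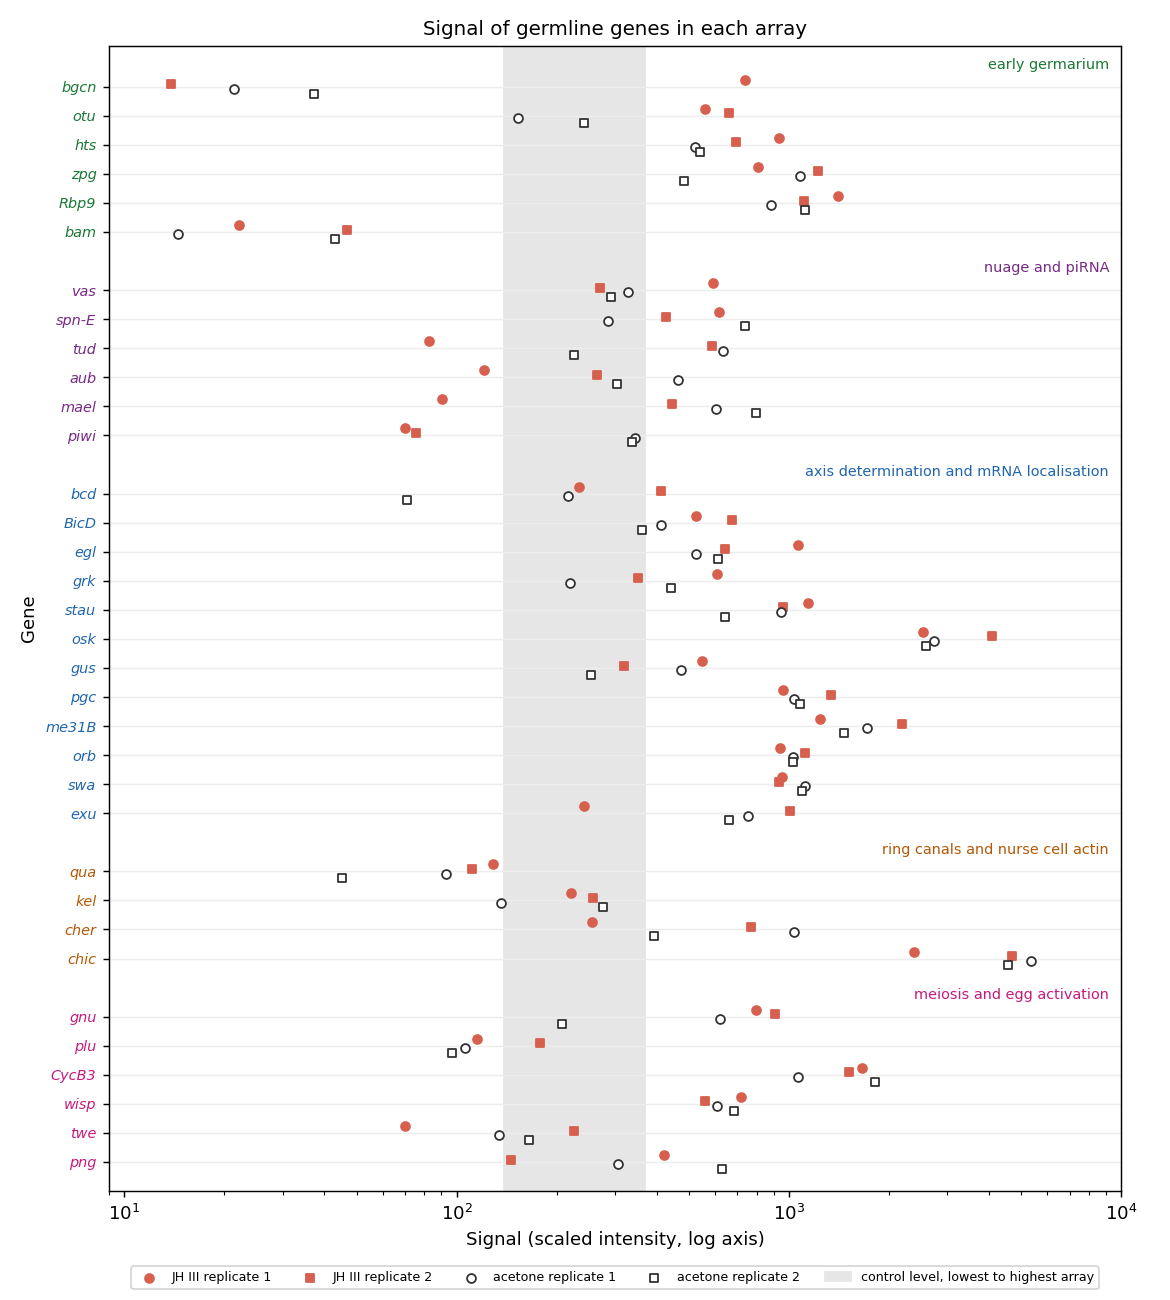
Signal (log axis) of each of the 34 measured germline genes in the 2 JH III arrays (filled) and the 2 acetone arrays (open), grouped by role and sorted by difference within a role. The grey band spans the control levels of the 4 arrays, 139 to 369, and piwi is the gene whose 2 JH III values lie below it and 2 acetone values within it, close together.

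The 6 genes of the early germarium all had positive differences as scaled by the authors, and 5 of 6 after quantile normalization or median centring (bam was then at -0.052 and -0.16), with a median of 0.47 (0.24 after median centring). None was called, and in 2 of them (33.3%), otu and hts, both JH III arrays lay above both acetone arrays. The share was 23.7% over all probe sets with no filter. In 0 of the 6 both lay below, against 13.4%. The gene otu, which encodes a deubiquitinase needed for germ cells to divide and differentiate in the ovary, had 561 and 662 with JH III, against 153 and 242 in acetone. The groups did not overlap, and acetone replicate 2 was under its control level. The difference was 1.32 ± 0.62 (SE), with a 95% interval of 0.09 to 2.56, an unadjusted limma p of 0.0365 and a limma adjusted p of 0.649. Over the alternatives it lay between 0.94 and 1.66, and the lowest limma adjusted p was 0.416.

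The gene hts encodes an adducin-like protein of the fusome, the membranous organelle that links the cells of a young cyst, and of ring canals. Its signal was 935 and 693 with JH III and 520 and 540 in acetone, again without overlap, and above the control level in every array. The difference was 0.54 ± 0.48 (SE), with a 95% interval of -0.43 to 1.5 and a limma adjusted p of 0.834.

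The differentiation factor bam, which turns a stem cell daughter into a dividing cystoblast, lay under the control level in every array, at 22.1 and 46.7 with JH III and 14.5 and 43.0 in acetone. Its level could not be read from these arrays, and it was below the filter and not tested. For its partner bgcn, related to RNA helicases, the signal was 739 and 13.8 with JH III and 21.4 and 37.3 in acetone. A single array, JH III replicate 1, was above the control level, and without it the difference of bgcn of 1.33 (limma adjusted p = 0.776) became -0.21.

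The other 2 germarium genes were above the control level in every array, with groups that overlap. For zpg, the innexin that forms gap junctions between germ cells and the somatic cells around them, the signal was 809 and 1227 with JH III and 1083 and 485 in acetone. The difference was 0.41, with a 95% interval of -0.49 to 1.31. For Rbp9, an RNA-binding protein of the Elav family needed for cysts to differentiate and also made in neurons, it was 1408 and 1114 with JH III and 883 and 1122 in acetone. Its difference was 0.31, with an interval of -0.51 to 1.12. A dimmer second probe set of Rbp9 had 391 and 149 with JH III and 131 and 55.2 in acetone (0.95, limma adjusted p = 0.831). Neurons also transcribe Rbp9. Of 9 neuron genes 8 were measured, 3 of them above the control level in every array and 2 in none, all 8 had positive differences, and their list summed to 6215 and 4375 with JH III and to 3591 and 4244 in acetone. Their part in the Rbp9 values was not tested.

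Genes of nuage and the piRNA pathway included the most negative differences of the set. Nuage is the granular material around germ cell nuclei in which piRNAs, small RNAs that guide Piwi proteins to transposons, are made and amplified. Of the 6 genes 4 had negative differences (5 after quantile normalization or median centring), the median was -0.65 and none was called. In piwi, mael and aub (50%) each JH III array lay below each acetone array, against 15.3% of all probe sets tested. In 0 each lay above, against 22.2%, and these are shares of only 6 genes. In 4 of the 6, piwi, mael, aub and tud, the lowest of the 4 arrays was JH III replicate 1. That array also had the lowest 3' to 5' ratios of GAPDH, eIF4a and actin and the highest CreX signal. The part of RNA quality or labelling in these values was not tested. Without that array the median of the 6 was -0.28, and without JH III replicate 2 it was -1.32.

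The Piwi protein works in the nucleus of germ cells and of the somatic cells of the ovary. The piwi signal was 69.8 and 75.5 with JH III, under the control level in both arrays, and 344 and 337 in acetone, above it in both. The replicates of each group lay close together and the groups did not overlap. With its low values raised to the control level, piwi was at least 1.14-fold lower with JH III. On the log2(signal + 83) scale the difference was -1.44 ± 0.79 (SE), with a 95% interval of -3.03 to 0.14 and a limma adjusted p of 0.747. With any 1 array left out it stayed between -1.47 and -1.42. The control level of JH III replicate 1, 369, was above both acetone values.

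The gene mael, for a nuage protein that acts in transposon silencing, had 90.5 and 445 with JH III and 606 and 794 in acetone. Both JH III values lay below both acetone values, but they differed from each other by more than the acetone values did. The lower one, 90.5 in JH III replicate 1, was under the control level of that array, 369. The difference was -1.36 ± 0.60 (SE), with a 95% interval of -2.56 to -0.16, an unadjusted limma p of 0.0273 and a limma adjusted p of 0.636. Without JH III replicate 1 it was -0.56, and without JH III replicate 2 it was -2.16.

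For aub, the cytoplasmic Piwi-family protein of the germline, the signal was 121 and 264 with JH III and 465 and 305 in acetone. The difference was -0.79 ± 0.70 (SE, limma adjusted p = 0.832), and JH III replicate 1 was under the control level. The scaffold gene tud, needed for nuage and for pole plasm, had 82.4 and 587 with JH III and 634 and 226 in acetone. These groups overlap, and the difference of -0.50 became 0.51 without JH III replicate 1.

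The remaining 2 genes of this role encode RNA helicases. For vas, the DEAD-box helicase that marks the fly germline, the signal was 590 and 270 with JH III and 329 and 291 in acetone. JH III replicate 1 was the highest array and the groups overlap, with a difference of 0.31 and a 95% interval of -0.93 to 1.56. For spn-E, a helicase with a Tudor domain, it was 615 and 427 with JH III and 286 and 740 in acetone, a difference of 0.11 with an interval of -0.98 to 1.21.

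A list of 25 other piRNA pathway genes had mostly positive differences. Of its 22 measured genes 16 (72.7%) had positive differences, beside 56.1% of all probe sets tested. The median was 0.28, and 4 of the 22 were above the control level in every array. Over all probe sets tested the median difference was 0.30 in the dimmest 25% and 0.27 in the next 25%. Of the 19 tested, 0 were called and 0 had an unadjusted limma p under 0.05, while in 6 (31.6%) each JH III array lay above each acetone array and in 1 (5.26%) below, against 22.2% and 15.3% of all probe sets tested. The smallest p belonged to shu, a co-chaperone that helps load Piwi proteins, with 629 and 444 with JH III and 262 and 279 in acetone (0.79, limma adjusted p = 0.798). Next came csul, an arginine methyltransferase of Piwi proteins, with 620 and 300 with JH III and 217 and 208 in acetone (0.81, limma adjusted p = 0.815), and nxf2 (0.70, limma adjusted p = 0.824). The difference between this list and the 6 genes above was not tested.

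**Figure D3:**
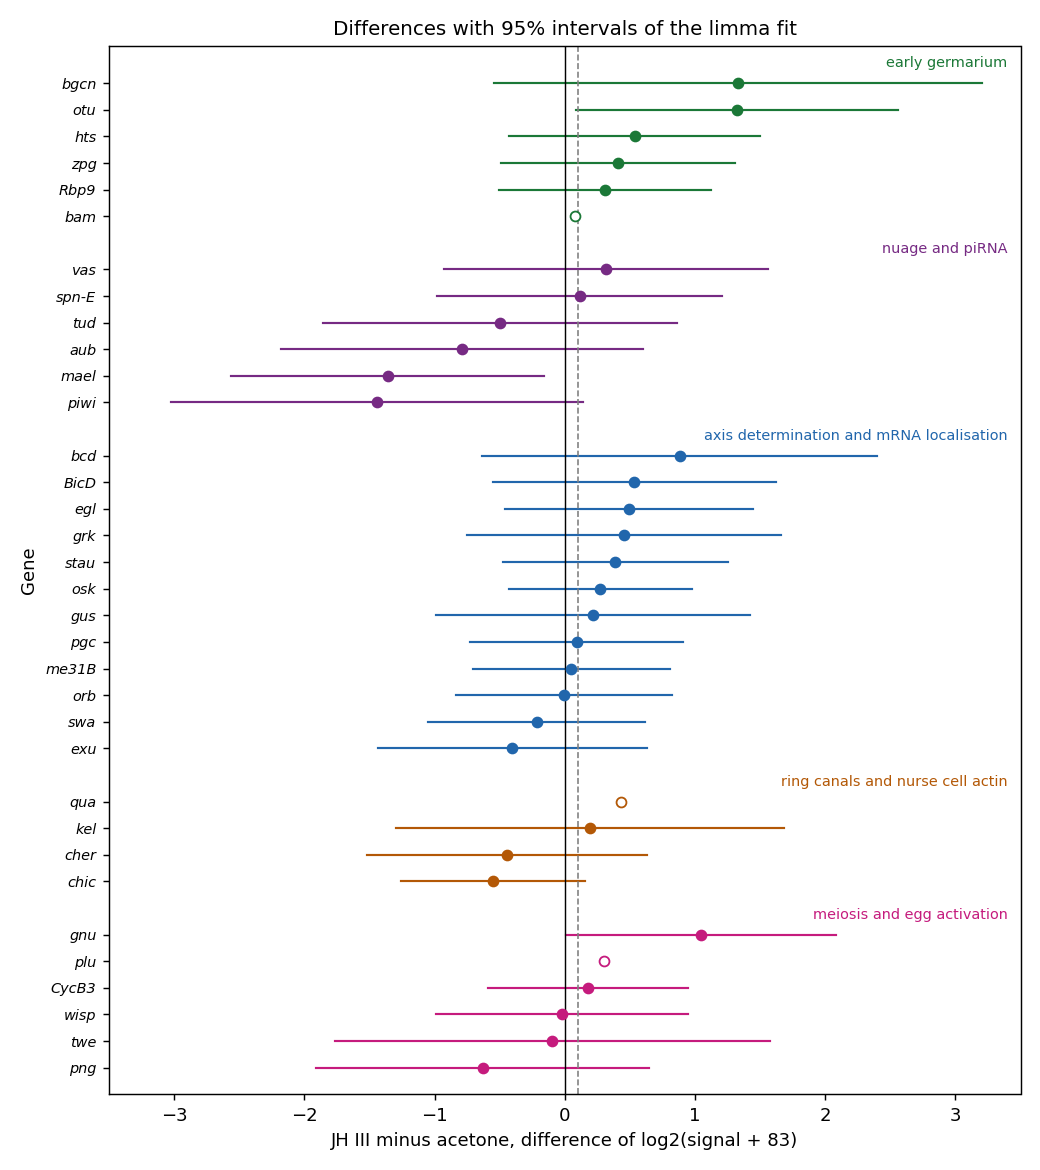
Difference of log2(signal + 83), JH III minus acetone, of each measured germline gene with the 95% interval of the limma fit over all probe sets, by role. Open points are the 3 genes below the filter, the dashed line is the median of all probe sets tested (0.10), and the intervals of otu, gnu and mael are those that leave out 0.

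The 12 measured genes of axis determination and mRNA localisation had differences between -0.40 and 0.88, with a median of 0.25. After median centring 6 of the 12 were positive, against 9 as scaled by the authors, and the median was 0.0079. None was called and none had an unadjusted limma p under 0.05. In 4 of them (33.3%), bcd, BicD, egl and stau, both JH III arrays lay above both acetone arrays, against 22.2% of all probe sets tested. In swa (8.33%) both lay below, against 15.3%. Of the 12, 9 were above the control level in every array.

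The localised mRNAs themselves gave the following values. Transcripts of osk, which assembles the pole plasm at the posterior of the oocyte, had 2537 and 4093 with JH III and 2726 and 2587 in acetone. JH III replicate 2 stood above the other 3 arrays, which lay together, and the difference was 0.27 ± 0.35 (SE), with a 95% interval of -0.43 to 0.98. For bcd, the anterior morphogen of the embryo, the signal was 233 and 413 with JH III and 217 and 71.0 in acetone. The groups did not overlap, but 1 array of each group was under the control level, and the difference was 0.88 ± 0.76 (SE, limma adjusted p = 0.829).

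For grk, the TGF-alpha ligand with which the oocyte patterns the follicle cells, the signal was 607 and 351 with JH III and 219 and 443 in acetone. The difference was 0.46, with a 95% interval of -0.75 to 1.66, and 0.056 without acetone replicate 1. For pgc, which holds transcription silent in the germ cells of the embryo, it was 962 and 1336 with JH III and 1034 and 1083 in acetone, a difference of 0.09 with an interval of -0.72 to 0.91. In both genes the groups overlap.

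Among the proteins that carry and anchor these mRNAs, the dynein adaptor BicD had 525 and 675 with JH III and 412 and 361 in acetone. Its RNA-binding partner egl had 1064 and 644 with JH III and 524 and 612 in acetone. Both genes lay above the control level in every array without overlap of the groups, at 0.53 ± 0.54 and 0.49 ± 0.48 (SE), with limma adjusted p of 0.852 and 0.848. In egl the gap between the lower JH III array and the higher acetone array was small, and without JH III replicate 1 the difference was 0.16.

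The double-stranded RNA-binding protein stau, which carries osk and bcd mRNAs, had 1145 and 958 with JH III and 946 and 642 in acetone (0.39 ± 0.43 SE, limma adjusted p = 0.867). A second probe set of stau had 818 and 771 with JH III and 675 and 1033 in acetone, with groups that overlap and a difference of -0.07. The gene swa, needed to anchor bcd mRNA, had 951 and 933 with JH III and 1121 and 1096 in acetone. Its replicates lay close together and the groups did not overlap, but the difference was small, -0.22 ± 0.42 (SE, limma adjusted p = 0.928). A second probe set of swa, under the control level in all arrays, gave no usable level. For exu, another factor for bcd mRNA, the signal was 242 and 1011 with JH III and 754 and 659 in acetone. Both extremes came from the JH III arrays, and the difference of -0.40 became 0.47 without JH III replicate 1.

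In the translational regulators the groups overlap. For orb, the CPEB protein that activates osk and grk mRNAs, the signal was 942 and 1121 with JH III and 1028 and 1032 in acetone, a difference of -0.003 with a 95% interval of -0.83 to 0.83. A second probe set of orb, under the control level in all arrays, gave no usable level. For me31B, the DEAD-box helicase of repressed maternal mRNPs, it was 1238 and 2189 with JH III and 1722 and 1467 in acetone, a difference of 0.05 with an interval of -0.71 to 0.81. The Vasa partner gus, of the SPRY and SOCS box family, had 548 and 320 with JH III and 474 and 254 in acetone (0.22, interval -0.99 to 1.42).

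Of 39 other axis and localisation genes, 32 were measured and 28 tested, with a median difference of 0.07 over the measured genes and 0 called. At an unadjusted limma p under 0.05 stood 1 higher and 1 lower. The higher one was smg, a repressor of maternal mRNAs in the embryo, with 1085 and 748 with JH III and 111 and 374 in acetone (1.73 ± 0.57 SE, limma adjusted p = 0.327). The lower one was cni, a cargo receptor for secretion of the grk ligand, with 802 and 1448 with JH III and 2565 and 1666 in acetone (-0.89 ± 0.39 SE, limma adjusted p = 0.636). The next was cact, the inhibitor of dorsal (-0.79, limma adjusted p = 0.71). In smg, cni and cact the groups did not overlap, and smg was under the control level of 139 in acetone replicate 1. In 6 of the 28 tested (21.4%) each JH III array lay above each acetone array. In 4 (14.3%) each lay below, against 22.2% and 15.3% of all probe sets tested.

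Of the 4 genes of ring canals and nurse cell actin, none was called or had an unadjusted limma p under 0.05, and 2 had a positive and 2 a negative difference, with a median of -0.12. Without JH III replicate 1 the median was 0.25. These proteins build the channels through which nurse cells empty into the oocyte and the actin that drives the flow. The profilin gene chic had 2383 and 4685 with JH III and 5347 and 4575 in acetone. JH III replicate 1 stood below the other 3 arrays, and the difference was -0.55 ± 0.35 (SE), with a 95% interval of -1.26 to 0.15 and an unadjusted limma p of 0.124 (limma adjusted p = 0.767). Without JH III replicate 1 it was -0.08. The filamin gene cher had 256 and 769 with JH III and 1040 and 393 in acetone, with a difference of -0.44 that became 0.22 without that array. Profilin and filamin are also made in muscle. The muscle list, with 10 of its 12 genes measured, 8 of them above the control level in every array and 9 with negative differences, summed to 19049 and 31666 with JH III and to 48800 and 26823 in acetone, in the order that chic and cher gave the 4 arrays. The gut list (172320 and 219880 with JH III, 258530 and 214430 in acetone) and the fat body list (63557 and 106910 with JH III, 108560 and 89300 in acetone) gave that order too. Most of the fat body sum came from Yp1, Yp2 and Yp3, of which only Yp1 gave that order on its own. The next brightest genes, apolpp and Lsd-1, each gave another order, with apolpp at 6115 and 5566 with JH III and 4040 and 6018 in acetone. The part of RNA from these tissues in the values of chic and cher was not tested.

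The villin-like gene qua had 129 and 111 with JH III and 93.2 and 45.3 in acetone, without overlap but under the control level in all 4 arrays, and it was not tested. For kel, an adaptor of a ubiquitin ligase at the ring canal, the signal was 220 and 257 with JH III and 136 and 276 in acetone, and 1 array (JH III replicate 2) was above its control level. Of 14 other genes of nurse cell actin, 7 were measured and tested, 0 were called and 0 had an unadjusted limma p under 0.05, with a median of 0.12. The smallest p was that of Arpc1, a subunit of the Arp2/3 complex (-0.69, limma adjusted p = 0.748), followed by the fascin gene sn (0.61, 0.825) and the cofilin gene tsr (0.38, 0.846).

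The 6 genes of meiosis and egg activation had a median difference of 0.08, with 3 positive and 3 negative differences and none called. The PNG kinase, made of the products of png, plu and gnu, switches on translation of maternal mRNAs when the egg is activated. The gnu gene had 799 and 907 with JH III and 622 and 208 in acetone. The groups did not overlap, acetone replicate 2 was under the control level, and the difference was 1.04 ± 0.52 (SE), with a 95% interval of 0.01 to 2.08. The unadjusted limma p was 0.0485 and the limma adjusted p 0.676. Without acetone replicate 2 the difference was 0.41. The probe sets of gnu disagreed: the other had 272 and 814 with JH III and 395 and 821 in acetone, with groups that overlap and a difference of -0.22.

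The catalytic subunit png had 421 and 146 with JH III and 307 and 627 in acetone, and a difference of -0.63 with a 95% interval of -1.91 to 0.65. With an array left out it lay between -1.20 and -0.061. The third subunit, plu, had 115 and 178 with JH III, against 106 and 97.2 in acetone, without overlap, but lay under the control level in all 4 arrays and was not tested.

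In the remaining 3 genes of this role the groups overlap. For CycB3, a cyclin of meiosis, the signal was 1665 and 1513 with JH III and 1062 and 1818 in acetone, a difference of 0.18 with a 95% interval of -0.59 to 0.95. For wisp, the poly(A) polymerase that extends maternal mRNA tails at egg activation, it was 718 and 561 with JH III and 608 and 686 in acetone, a difference of -0.02 with an interval of -0.99 to 0.95. The meiotic Cdc25 phosphatase twe, at 70.2 and 225 with JH III and 135 and 165 in acetone, was under the control level in all arrays and gave a difference of -0.10 with an interval of -1.77 to 1.57. Of 35 other genes of meiosis and egg activation, 24 were measured and 20 tested, with 0 called, 0 at an unadjusted limma p under 0.05 and a median of 0.02. The 3 of smallest p were fs(1)Ya, a nuclear lamina protein of the egg (-0.69), ord, a factor of sister chromatid cohesion (1.27), and the calcineurin regulator sra (-0.54), with limma adjusted p of 0.757, 0.763 and 0.776. For ord, under the control level in both acetone arrays, that is at least 1.89-fold higher with JH III by the bound. The control level of acetone replicate 2, 295, was above the ord value of JH III replicate 2, 277.

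Among 21 other genes of germline stem cells and cysts, 15 were measured and 14 tested, with a median of -0.18 over the measured genes, 0 called and 2 (enc and dom) at an unadjusted limma p under 0.05. The gene enc, which acts in cyst divisions, had 519 and 398 with JH III and 39.6 and 44.9 in acetone, under the control level. Against that level enc stood at least 2.24-fold higher in the JH III arrays (limma unadjusted p = 0.00966, adjusted p = 0.501). The chromatin remodeller dom was at 0.93 (limma adjusted p = 0.562). The transcription regulator stil had 153 and 60.2 with JH III, against 348 and 412 in acetone (limma unadjusted p = 0.0832, adjusted p = 0.757). By the bound it was at least 1.27-fold lower with JH III. The control level of JH III replicate 1, 369, was above the stil value of acetone replicate 1, 348. Over all 5 lists of other germline genes, 100 were measured and 88 tested, with 0 called and 4 (4.55%) at an unadjusted limma p under 0.05, against the background of 7.29%. In 19 of the 88 (21.6%) each JH III array lay above each acetone array, and in 11 (12.5%) below, against 22.2% and 15.3%.

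The arrays were also compared by which one held the extreme value of each gene. Over the 34 genes JH III replicate 2 was highest in 13 (38.2%), against 22.2% of all probe sets tested, and lowest in 5 (14.7%), against 19.0%. JH III replicate 1 was highest in 10 and lowest in 12 (35.3%), against 36.6% and 27.8% of all probe sets. The summed signal of the 34 genes was 23811 and 29220 with JH III and 25972 and 24358 in acetone, so that the JH III arrays held both the highest and the lowest sum. Summed eggshell genes, the markers of follicle cells of the same ovaries, gave the 4 arrays the same order as the germline sum. In both, JH III replicate 2 was highest, then acetone replicate 1, acetone replicate 2 and JH III replicate 1. The eggshell genes summed to 36883 and 49032 with JH III and to 38660 and 37694 in acetone. Of these 15 measured genes 11 had positive differences (median 0.43). In 4 of the 15 (26.7%) the JH III arrays lay above and in 1 (6.67%) below both acetone arrays, against 23.7% and 13.4% of all probe sets with no filter. Of the 14 tested, limma called 0, and 5 (35.7%) had an unadjusted limma p under 0.05, against the background of 7.29%. These were 4 higher and 1 lower (Cp16, -1.48). Among the higher ones the groups of Cp15 and Vm32E overlap, and Cp15 had 99.3 in acetone replicate 2 alone. How far the amount of ovary tissue in each pool set the germline values was not tested.

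**Figure D4:**
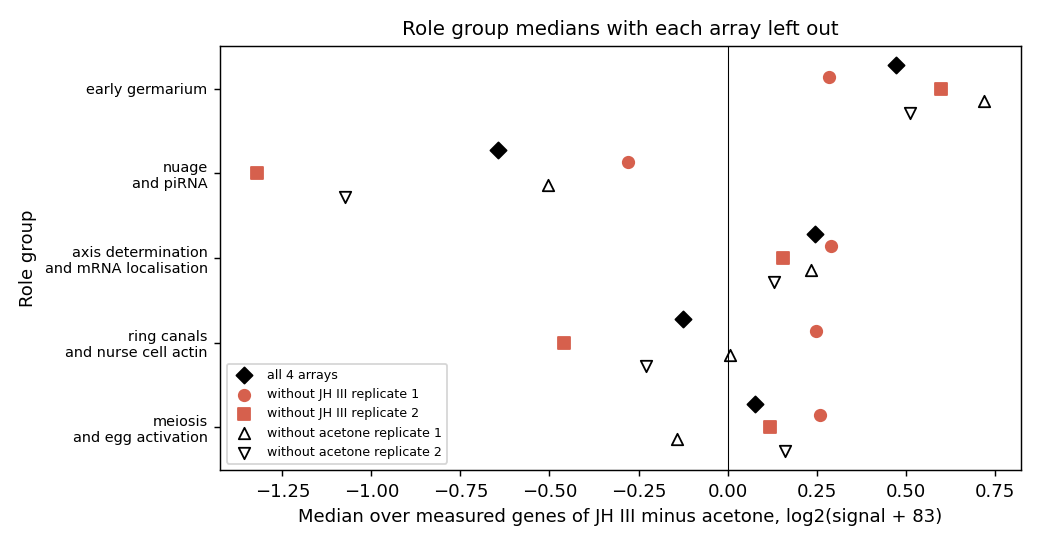
Median over the measured genes of each role of the difference JH III minus acetone, log2(signal + 83), with all 4 arrays and with each array left out in turn. The early germarium genes lie between 0.28 and 0.72 and the nuage genes between -1.32 and -0.28 when 1 array is left out, while the medians of ring canal genes and of egg activation genes lie on both sides of 0.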

How the data were processed

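The 4 samples were grouped and numbered by their titles. The authors deposited a linear intensity for every probe set on every array, with 2% trimmed means of 500.1, and how probe pairs were summarised is not stated in the labels or file headers. RNA was labelled by the standard Affymetrix protocol, per the labels. Probe sets were named from the platform annotation where it gave 1 symbol (12442 of 13966, without 44 controls), and 12393 matched a RefSeq table used for names only.

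Signals were kept as the authors scaled them and tested as log2(signal + 83), 83 being the 25th percentile of all values, without the dimmest 25% of probe sets by mean. limma 3.58.1 in R 4.3.3 (lmFit, eBayes with trend, two-sided) compared JH III with acetone over all 4 arrays, with Benjamini-Hochberg adjustment over 10474 probe sets. Each fit had 2 residual degrees of freedom, and 67.4 after moderation, so that most of the spread was borrowed from other probe sets. Where a group lay under the control level in both arrays and the other above it in both, low values were raised to that level and the fold given as a bound. Replicates are separate pools of females per the labels. The exact permutation test of a single value cannot go below p = 0.333 with 2 arrays against 2 and was not used.

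The genes and lists, and the tests, were chosen with earlier results of these data known. All measured members were named, with up to 3 genes of smallest p from each other list. Values per array were given for every member. Python 3.11.15 with pandas 2.3.3, numpy 2.4.6 and matplotlib 3.10.9 read the tables and drew the plots. Alternatives changed the pseudocount, scaling, filter, variance trend, test, block, probe set rule or the arrays used. Deviations of same-numbered arrays from their group means had a correlation of -0.11 over the probe sets tested, and nothing in the labels ties the numbers to a shared batch.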

Additional observations from a re-analysis of the deposited data

How the results depend on the processing

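Limma or the methods' t-test called 0 germline genes under each of 16 alternatives (lowest adjusted p 0.151 over the 15 without the crossed block), and at an unadjusted p under 0.05 the count was 0 to 4. Over all probe sets limma called 17, and 13 and 12 with a pseudocount of 1 or 256. It called 2 after quantile normalization, median centring, no filter, a filter of 50% or with the replicate block, 4 with the chip lot as a block, and 3 to 36 with an array left out. Acetone replicate 1 was alone in its lot, so the lot as a block gives the differences found without that array and is no separate check. Without a trend in eBayes and by the methods' t-test the count was 0. A crossed replicate block, chosen after seeing the data because of the correlation of -0.11, gave 109 over all probe sets and 0 germline genes. The replicate numbers are not known to pair the pools.

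The median of the 34 genes (0.19) was 0.27 with a pseudocount of 1, 0.086 after quantile normalization, -0.051 after median centring and 0.12 to 0.22 with an array left out. The early germarium median (0.47) was 0.24 after median centring, 0.72 with the chip lot as a block and 0.28 to 0.72 with an array left out, and the axis median (0.25) was 0.0079 after median centring and 0.13 to 0.29 with an array left out. With an array left out, the medians of nuage, ring canal and egg activation genes were -1.32 to -0.28, -0.46 to 0.25 and -0.14 to 0.26. Genes whose groups do not overlap numbered 13 of 34 with all arrays and 19 to 28 with an array left out, since 1 array in a group overlaps less.

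Of the 31 tested genes 15 kept their sign in each of these 15 that tested them and 16 did not. After quantile normalization spn-E was at -0.091 and kel at -0.0067. After median centring spn-E was at -0.12, me31B -0.19, pgc -0.14, gus -0.019, kel -0.043 and CycB3 -0.059. With the chip lot as a block spn-E was at -0.46, tud 0.11, kel -0.16, cher 0.18 and CycB3 -0.19, and orb was at 0.23 with the mean of its probe sets. With an array left out the ranges were -0.21 to 2.87 (bgcn), -0.11 to 0.93 (zpg), -0.15 to 0.78 (vas), -0.46 to 0.69 (spn-E), -1.51 to 0.51 (tud), -0.064 to 0.61 (osk), -0.12 to 0.11 (orb) and -1.28 to 0.47 (exu). They were -0.34 to 0.44 (me31B), -0.13 to 0.31 (pgc), -0.14 to 0.58 (gus), -0.16 to 0.55 (kel), -1.11 to 0.22 (cher), -0.19 to 0.54 (CycB3), -0.18 to 0.14 (wisp) and -0.60 to 0.41 (twe). Of the genes that kept their sign, the ranges were 0.34 to 0.73 (hts), 0.15 to 0.47 (Rbp9), -1.17 to -0.41 (aub), 0.40 to 1.36 (bcd), 0.056 to 0.86 (grk), 0.14 to 0.64 (stau), -1.20 to -0.061 (png) and 0.41 to 1.68 (gnu). The causes were not tested. An arm left with 1 array was assumed to vary like the other. Signal near the control level limits bam, qua, plu and twe most.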
